A study of Mus musculus with 6 samples.

Results

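The Siglecs are cell surface lectins of the immunoglobulin superfamily that bind sialic acid, the acidic sugar at the ends of many glycan chains. Most members carry tyrosine motifs in their tails that recruit the phosphatases SHP-1 and SHP-2 and dampen activating signals, whereas Siglec-H and Siglec-15 have short tails and pair with the activating adaptor DAP12. In bone marrow, single members are used as surface markers: Siglec-H for plasmacytoid dendritic cells, Siglec-F for eosinophils, CD169 (Siglec-1) for resident macrophages and CD22 for B cells, while Siglec-15 is known for promoting osteoclast formation.

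The family was followed in sorted bone marrow progenitors of C57BL/6JRj mice, whole transcriptomes of which were sequenced from total RNA. CD27-low cells labelled MOP gave 3 libraries and CD27-high cells labelled MODP gave 3 libraries; the title of the series places a bipotent macrophage and osteoclast progenitor downstream of one that also forms dendritic cells. All 6 libraries are labelled WT, and the labels name no treatment, genetic change, age or number of pooled animals. They do not tie libraries to separate animals either, so the spread behind each p-value is that between 3 libraries and could be technical. The members were the 9 genes with the symbols Siglech, Siglecf, Siglecg, Siglece, Siglec1, Siglec15, Cd33, Cd22 and Mag, out of 22271 genes in the count table. All 9 had a row, and 8 passed the filter on low counts; Siglec15 did not and was not tested.

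Library totals ran from 10701425 to 15892640 counts. Cd27, the gene of the sort marker, stood at 4.57, 3.52 and 3.64 CPM (counts per 1000000) in MOP and at 35.4, 38.9 and 38.7 CPM in MODP, as the labels say. Among 8 reference genes for these progenitors, MOP had more Ly6c2, Csf1r and Tnfrsf11a and less Cd27, Flt3, Cd34 and Kit, while Itgam missed the threshold. Replicate 2 stood apart in both groups: CPM summed over 9 neutrophil genes was 11682 in MOP replicate 2 and 2819.7 to 4999.5 in the other MOP libraries, and 16733 in MODP replicate 2 and 2169.6 to 3584 in the other MODP libraries. For that reason members and gene lists are also given without these libraries. Libraries of the same column number also deviated together from their group means, so values from a fit with that number as a block are printed where they change a member's call or a list's count.

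Of the 8 tested members, 2 were lower in MOP than in MODP, namely Siglech and Siglecf; 0 were higher, and the other 6 were not called. Calls come from the quasi-likelihood test of edgeR, with p-values adjusted by Benjamini-Hochberg over the 12850 genes tested and called at 0.05 or less. Across all tested genes 14.9% were lower and 16.3% were higher. Of the 6 members that did not pass, Siglece and Siglec1 were higher in MOP when the replicate number was a block, and Siglece and Cd33 were higher without replicate 2 of both groups. Of all tested genes, 21.2% were higher with the block and 18.4% without replicate 2 of both groups. With group alone, 2 members had an unadjusted p under 0.05 by edgeR, Siglech and Siglecf, and DESeq2 called 0 higher and 2 lower. The libraries of both groups did not overlap for 2 of the 8 members, again Siglech and Siglecf, against 47.6% of all tested genes. The median log2 fold change of MOP over MODP was 0.11 over the 8 members and -0.01 over all tested genes.

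**Figure D1:**
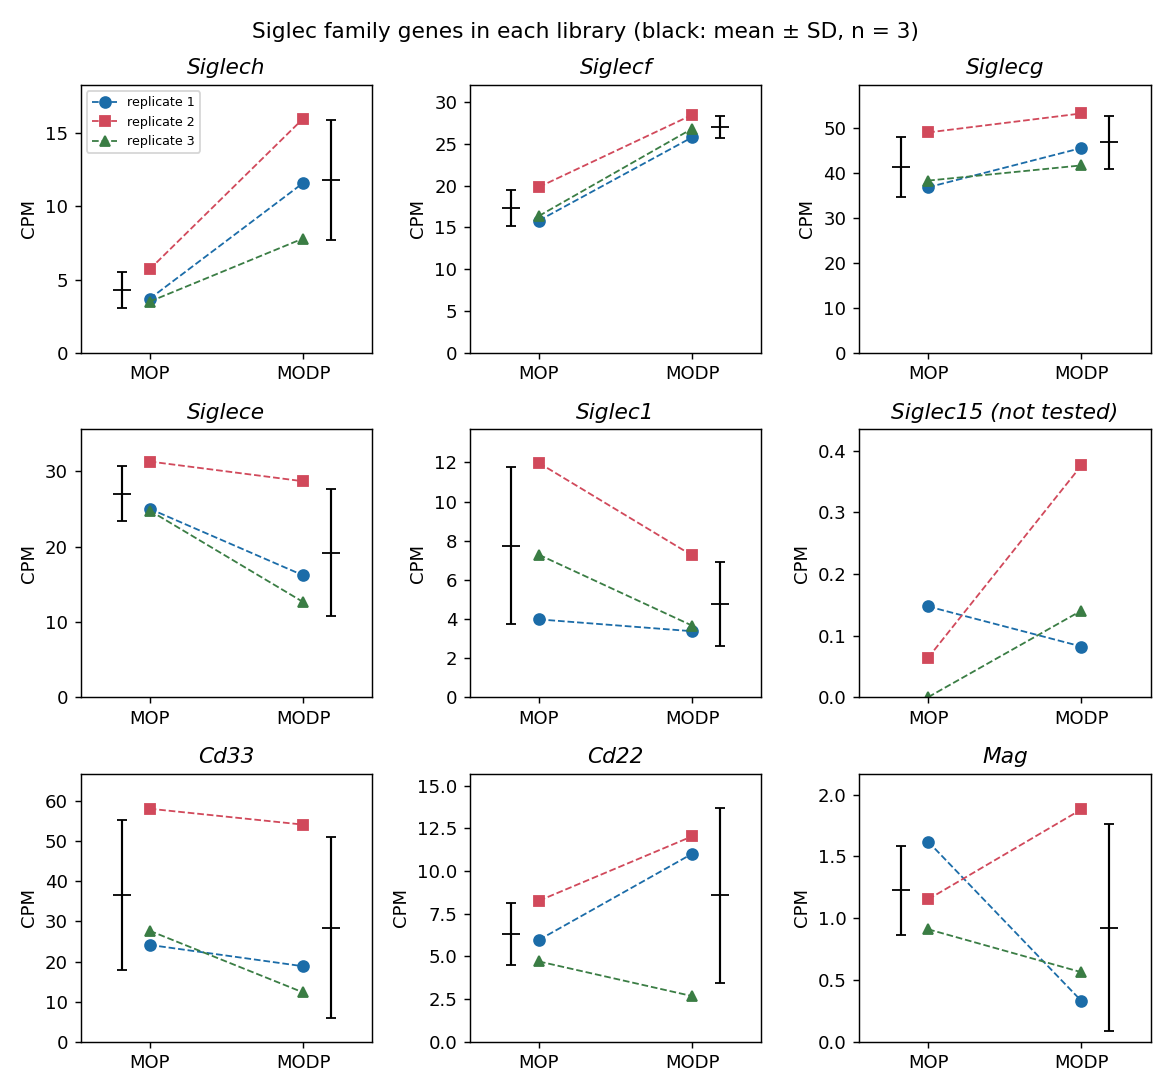
CPM (vertical axis, from 0) of each Siglec family gene in the 3 MOP and 3 MODP libraries; dashed lines join libraries of the same replicate number, and black bars are the mean ± SD (n = 3) of tested members. All 3 MOP libraries lie below all 3 MODP libraries for Siglech and Siglecf, and replicate 2, drawn as squares, is the highest library of both groups for 7 of the 9 genes.

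Of the 9 genes, 7 lie on mouse chromosome 7, where Siglecf and Siglecg are direct neighbours among protein-coding genes, as are Cd22 and Mag. Siglech and Siglecf were lower in MOP, and Siglece and Cd33 were called higher without replicate 2 of both groups. Siglec1, called higher with the block, had no promoter window in the set used. The promoter windows of Siglech, Siglecf, Siglece and Cd33 are shown. They are the RefSeq windows of 250 bases before to 50 bases after the start site on GRCm38.p6, at chr7:55767934-55768233 (plus strand) for Siglech, chr7:43351091-43351390 (plus strand) for Siglecf, chr7:43660112-43660411 (minus strand) for Siglece and chr7:43533122-43533421 (minus strand) for Cd33. Capitals mark GAGGAA, the core recognised by the myeloid factor PU.1, searched on both strands, which on the opposite strand reads TTCCTC.
Siglech: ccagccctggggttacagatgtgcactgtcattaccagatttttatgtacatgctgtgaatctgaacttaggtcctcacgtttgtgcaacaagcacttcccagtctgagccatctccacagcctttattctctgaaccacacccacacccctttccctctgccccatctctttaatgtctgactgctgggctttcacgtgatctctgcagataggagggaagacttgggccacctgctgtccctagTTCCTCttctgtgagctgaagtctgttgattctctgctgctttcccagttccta
Siglecf: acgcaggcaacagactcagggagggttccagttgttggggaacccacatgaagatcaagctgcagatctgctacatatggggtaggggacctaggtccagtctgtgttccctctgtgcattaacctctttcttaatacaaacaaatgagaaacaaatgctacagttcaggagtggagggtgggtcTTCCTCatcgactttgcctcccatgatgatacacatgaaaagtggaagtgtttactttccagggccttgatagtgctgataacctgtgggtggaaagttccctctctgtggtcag
Siglece: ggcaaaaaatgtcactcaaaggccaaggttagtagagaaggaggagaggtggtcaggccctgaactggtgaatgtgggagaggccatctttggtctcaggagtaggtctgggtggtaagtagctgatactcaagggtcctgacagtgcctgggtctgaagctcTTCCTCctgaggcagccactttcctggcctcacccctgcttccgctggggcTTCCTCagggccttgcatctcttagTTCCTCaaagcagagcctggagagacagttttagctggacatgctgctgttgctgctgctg
Cd33: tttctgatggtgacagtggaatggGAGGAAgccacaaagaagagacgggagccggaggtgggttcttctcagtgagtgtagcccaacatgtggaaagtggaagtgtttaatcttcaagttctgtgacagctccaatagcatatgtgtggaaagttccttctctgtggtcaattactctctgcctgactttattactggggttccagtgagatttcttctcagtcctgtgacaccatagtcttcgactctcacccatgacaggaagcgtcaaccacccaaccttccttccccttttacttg

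GAGGAA occurred 3 times in the Siglece window, beginning 87, 36 and 11 bases before the start site. It occurred 1 time each in the windows of Siglech (4 bases before), Siglecf (65 bases before) and Cd33 (226 bases before). Members whose windows are not printed held it too: 1 time in each Mag window and 2 times in the Siglecg window at chr7:43407989-43408288. The other Siglecg window and that of Cd22 held it 0 times. Of 32851 mouse promoter windows of the same length, 28.3% held these letters at least 1 time. The E-box CANNTG, the letters bound by E proteins such as Tcf4, occurred 6 times in the Siglecf window, 3 times in that of Siglech, 2 times in that of Cd33 and 0 times in that of Siglece, and 72.3% of all windows held it. TGTGGT, a RUNX core, occurred 1 time in the windows of Siglech, Siglecf and Cd33 and was held by 16.8% of all windows. No GAGGAA match in the 4 windows overlapped a match of another motif. TGACTCA, the AP-1 site, was in none of these 4 windows, against 5.2% of all windows. A match of letters is a description of the sequence and not evidence of binding.

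The windows of Siglecf and Cd33 were also alike in sequence. The best local alignment between them held 65 identical bases of 85 aligned positions (76.5%), the highest score of 41 pairs of member windows. It covered 35 bases before to 48 bases after the start site of Siglecf, and 165 to 81 bases before that of Cd33. The TGTGGT of both genes lay inside the aligned stretch. The expression of both genes in these libraries was not alike: Siglecf was lower in all 3 MOP libraries than in any MODP library, while the groups overlapped for Cd33.

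Siglech (ENSMUSG00000051504), which encodes a DAP12-coupled endocytic receptor and marker of plasmacytoid dendritic cells, showed the larger of the 2 differences. It had 50, 89 and 46 counts in MOP replicates 1 to 3 and 141, 170 and 111 counts in MODP, that is 3.68, 5.70 and 3.49 CPM in MOP and 11.6, 15.99 and 7.80 CPM in MODP. Every MOP library was below every MODP library, and within each group replicate 2 was the highest and replicate 3 the lowest. The mean was 4.29 ± 1.22 CPM in MOP and 11.8 ± 4.10 CPM in MODP (SD, n = 3 each). This was 2.72-fold lower in MOP (log2 fold change -1.44, SE 0.30), and edgeR gave an adjusted p of 0.0097. Paired by replicate number, the differences in log2 CPM were -1.62, -1.46 and -1.13, and the SE was 0.16 with the block. Without replicate 2 of both groups the log2 fold change was -1.43 ± 0.25 (edgeR adjusted p = 0.0041), and over the fits without 1 library the edgeR adjusted p ran from 0.0037 to 0.049.

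Other genes of plasmacytoid dendritic cells were lower in MOP only in part. Of 12 genes on that marker list, 11 were tested, and MOP had less of 4 (Tcf4, Runx2, Cox6a2 and Bst2) and more of Lair1, an inhibitory collagen receptor; 6 were not called. Of all tested genes, 14.9% were lower and 16.3% higher. The block gave 5 lower and 2 higher, and without replicate 2 of both groups 5 were lower and 3 higher. Of all tested genes, 19.8% were lower and 21.2% higher with the block. Without replicate 2 of both groups these shares were 15.6% and 18.4%. Tcf4, the transcription factor on which these dendritic cells depend, stood at 57.7, 60.4 and 52.5 CPM in MOP and at 94.0, 81.9 and 80.0 CPM in MODP (log2 fold change -0.58 ± 0.08, edgeR adjusted p = 0.0018; -0.66 ± 0.10 without replicate 2 of both groups). CPM summed over the list was 252 to 284 in MOP and 294 to 348 in MODP, and none of the 12 genes was at 0 in all libraries. The part of this list in the Siglech difference was not tested. In RNA of whole sorted populations, fewer cells of a type and less RNA per cell cannot be told apart.

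Siglec15 (ENSMUSG00000091055), which like Siglech encodes a DAP12-coupled member, was close to absent from both populations. It had 2, 1 and 0 counts in MOP replicates 1 to 3 and 1, 4 and 2 counts in MODP, or 3 counts among 43064557 in MOP and 7 among 36494712 in MODP. The gene lies on chromosome 18. The count of 0 in MOP replicate 3 allows up to 0.228 CPM, taking 3 counts as the limit, and this covers counting error only. A difference was not detectable at this depth and no fold change is given. Mature osteoclast genes differed widely in level. Ocstamp and Dcstamp, needed for osteoclast fusion, and Oscar, a costimulatory receptor, were at or below 0.152 CPM in every library. Ctsk, the collagen-degrading cathepsin K, reached 8.26 CPM in MOP replicate 2 and 2.63 CPM in MODP replicate 2, and was at or below 0.515 CPM in the other libraries. Mmp9, a matrix metalloproteinase that neutrophils also make, ran from 116 to 373 CPM in MOP and from 37.2 to 309 CPM in MODP. Acp5, the tartrate-resistant acid phosphatase, was higher in MOP with 21.8, 33.2 and 16.1 CPM, against 13.8, 12.6 and 10.3 CPM in MODP (log2 fold change 0.96 ± 0.28, edgeR adjusted p = 0.042; 0.66 ± 0.20 without replicate 2 of both groups). Of the 9 genes on the osteoclast list 3 were tested, of which Itgb3 and Acp5 were called higher and Mmp9 was not called. Of all tested genes, 16.3% were higher. Acp5 lost its call without MOP replicate 1, without MODP replicate 1, 2 or 3, or with no filter on low counts. Itgb3 was called under every alternative.

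Siglecf, Siglecg, Siglece, Cd33 and Cd22 did not move together. Siglecf (ENSMUSG00000039013), whose product promotes the death of eosinophils when engaged, had 15.8, 19.9 and 16.4 CPM in MOP and 25.8, 28.5 and 26.8 CPM in MODP. The groups did not overlap, and the MODP libraries lay within a narrow range of each other. The mean was 17.4 ± 2.18 CPM in MOP and 27.1 ± 1.35 CPM in MODP (SD, n = 3 each). Siglecf was thus 1.56-fold lower in MOP (log2 fold change -0.64, SE 0.11), and the adjusted p by edgeR was 0.0034. The paired differences in log2 CPM were -0.70, -0.52 and -0.71, and the edgeR adjusted p was 0.0031 to 0.018 over the fits without 1 library. Without replicate 2 of both groups the fold change was -0.71 ± 0.11 on the log2 scale (edgeR adjusted p = 0.0023).

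Eosinophil genes lay on both sides. All 9 genes of the eosinophil list were tested: Ccr3 and Alox15 were called higher in MOP, 0 lower, and 7 were not called. Of the 9, 7 had a log2 fold change above 0 and 2 below, namely Il5ra, the receptor for interleukin 5 (-0.99 ± 0.54), and Prg3 (-0.35 ± 0.47). Of all tested genes, 16.3% were higher and 14.9% lower. The block called Ccr3 and Epx higher and Il5ra lower, and without replicate 2 of both groups 3 were higher and 0 lower. Of all tested genes, 21.2% were higher and 19.8% lower with the block. Without replicate 2 of both groups these shares were 18.4% and 15.6%. The list's summed CPM was 312 to 493 in MOP and 166 to 379 in MODP. Without Alox15 (70.1 to 132 CPM in MOP and 2.11 to 15.6 CPM in MODP) the sums were 196.7, 422.8 and 198.9 CPM in MOP and 201.3, 363.2 and 163.7 CPM in MODP, and overlapped. The part of these genes in the Siglecf difference was not tested. Epx, the eosinophil peroxidase, had 45.3, 97.1 and 47.9 CPM in MOP and 35.5, 74.5 and 43.5 CPM in MODP (edgeR adjusted p = 0.66). Replicate 2 was the highest library of both groups for Epx and for Siglecf; for Siglecf it was 1.232 times the mean of the other libraries in MOP and 1.082 times in MODP.

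Siglecg (ENSMUSG00000030468), an inhibitory receptor best known on B-1 cells, differed little between the populations. It stood at 36.7, 48.9 and 38.2 CPM in MOP and at 45.5, 53.1 and 41.6 CPM in MODP. The groups overlapped, and each MOP library was below the MODP library of the same number. MOP over MODP came to -0.18 ± 0.13 (SE) on the log2 scale, which did not pass (edgeR adjusted p = 0.36), and the block gave -0.18 ± 0.07, which also missed the threshold (edgeR adjusted p = 0.064), as did -0.21 ± 0.09 without replicate 2 of both groups (edgeR adjusted p = 0.097). Of the 31-mers of its longest transcript, 8.81% also occur in transcripts of other genes, among them its neighbour Siglecf.

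Siglece (ENSMUSG00000030474), an inhibitory receptor of neutrophils, monocytes and macrophages, had 25.0, 31.3 and 24.8 CPM in MOP and 16.2, 28.7 and 12.7 CPM in MODP. The groups overlapped through MODP replicate 2 alone, which was above MOP replicates 1 and 3. With group alone the difference of 0.51 ± 0.31 (SE) in log2 CPM did not pass (edgeR adjusted p = 0.28). Each MOP library exceeded its paired MODP library, by 0.62, 0.13 and 0.96 in log2 CPM, and the block gave a log2 fold change of 0.55 ± 0.16, which passed (edgeR adjusted p = 0.039). Without MODP replicate 2 it was 0.91 ± 0.15 (edgeR adjusted p = 0.0025), and without replicate 2 of both groups 0.79 ± 0.14 (edgeR adjusted p = 0.0045).

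Cd33 (ENSMUSG00000004609), the founding member of the myeloid Siglecs, varied more between replicates than between populations. It stood at 24.2, 58.1 and 27.7 CPM in MOP and at 18.8, 54.2 and 12.3 CPM in MODP. Replicate 2 was 2.24 times the mean of the other libraries in MOP and 3.48 times in MODP. Its log2 fold change of 0.39 ± 0.72 (SE) did not pass (edgeR adjusted p = 0.74) and turned to -0.12 ± 0.77 without MOP replicate 2. The paired differences in log2 CPM were 0.36, 0.10 and 1.16, all positive, and with the block the edgeR adjusted p was 0.20. Without replicate 2 of both groups the log2 fold change was 0.74 ± 0.20 (edgeR adjusted p = 0.030), on 2 libraries a group.

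Neutrophil genes were highest in replicate 2 of both groups, as were 7 of the 9 members, Siglece and Cd33 among them. The summed CPM of the eosinophil, B lineage, resident macrophage, osteoclast and plasmacytoid dendritic cell lists was highest there too. All 9 genes on the neutrophil list were tested, and edgeR and DESeq2 each called 0. By edgeR, 0 of them had an unadjusted p under 0.05. Without replicate 2 of both groups 1, Cxcr2, was higher, against 18.4% of all tested genes. Ngp, a granule protein of immature neutrophils, stood at 599, 2677 and 1073 CPM in MOP and at 880.5, 3911 and 505 CPM in MODP. Replicate 2 exceeded the mean of the other libraries in the summed CPM of this list by 2.99 times in MOP and 5.82 times in MODP. None of the 9 genes was at 0 in all libraries. Their part in the levels of Siglece and Cd33 was not tested.

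Cd22 (ENSMUSG00000030577), the inhibitory co-receptor of the B cell receptor, had 5.96, 8.26 and 4.70 CPM in MOP and 11.0, 12.04 and 2.67 CPM in MODP. MODP replicate 3 was the lowest of all 6 libraries, while the other 2 MODP libraries were the highest. MOP over MODP was -0.42 ± 0.57 (SE) on the log2 scale and did not pass (edgeR adjusted p = 0.63). Without MODP replicate 3 it was -0.87 ± 0.23 (edgeR adjusted p = 0.033), and without replicate 2 of both groups -0.33 ± 0.76 (edgeR adjusted p = 0.79). The pairs went in different directions, with differences in log2 CPM of -0.87, -0.54 and 0.78. Of the 10 B lineage genes edgeR called 0 and DESeq2 called 0, and 0 had an unadjusted p under 0.05 by edgeR. The block called 4 of them lower (Blnk, Igll1, Pax5 and Vpreb1), against 19.8% of all tested genes. Without replicate 2 of both groups 2 of 9 tested were lower, against 15.6% of all tested genes. Their summed CPM was 42.1, 92.2 and 52.1 in MOP and 75.1, 159 and 48.9 in MODP, so that MODP replicate 3 was the lowest MODP library here too; the part of these genes in the Cd22 values was not tested. An antisense gene overlaps 479 bases of Cd22 exons. The sources used here do not say whether reads were counted by strand, so reads of both cannot be told apart.

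**Figure D2:**
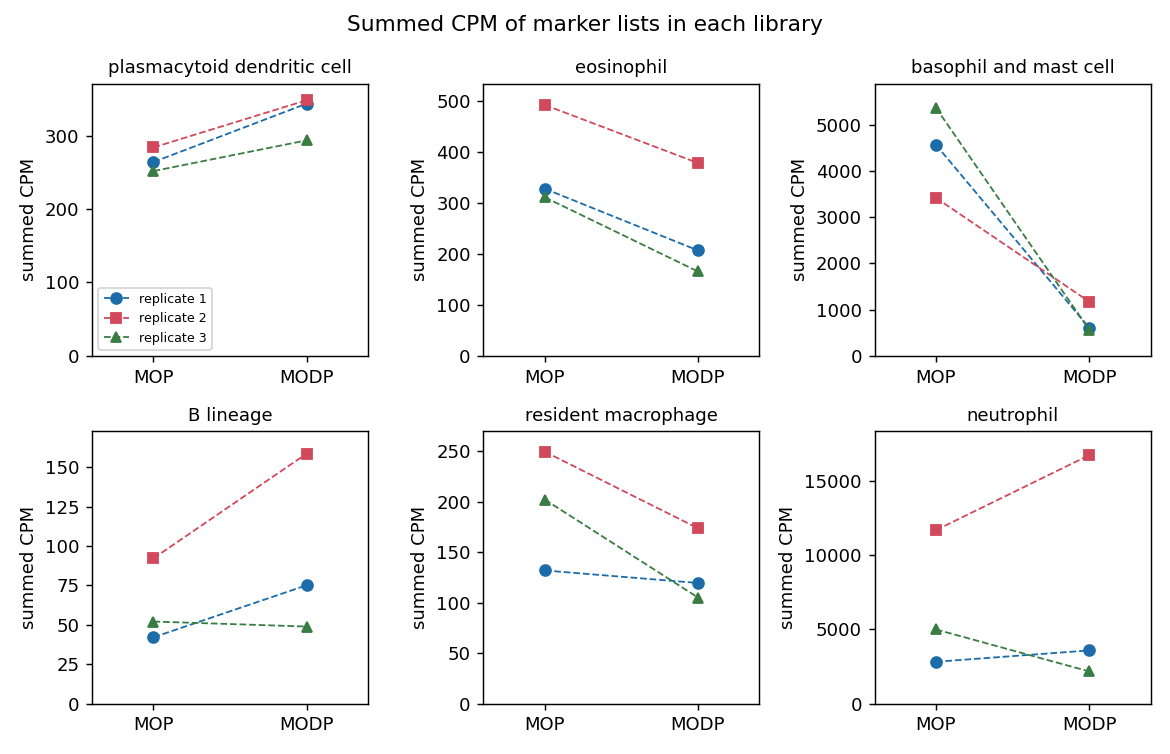
CPM summed over 6 marker lists (vertical axes, from 0) in the 3 MOP and 3 MODP libraries; dashed lines join the same replicate number. Replicate 2 is far above the other libraries of its group for the neutrophil list, and the basophil and mast cell list is higher in every MOP library than in any MODP library.

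**Figure D3:**
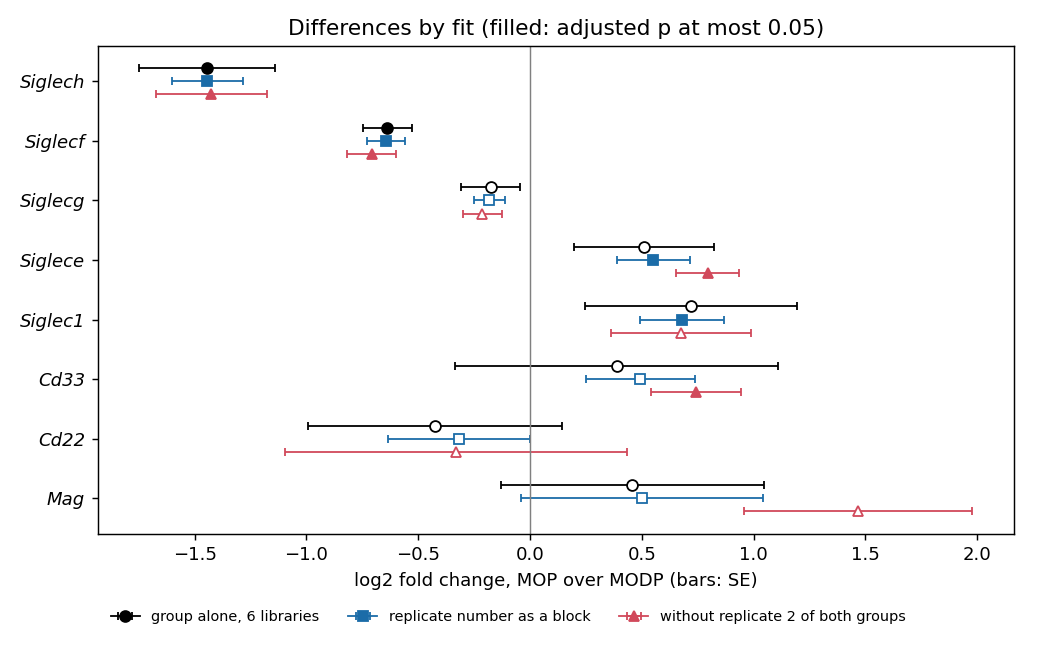
Log2 fold change of MOP over MODP (horizontal axis, bars are SE) of the 8 tested members in a fit with group alone, with the replicate number as a block and without replicate 2 of both groups; filled symbols have an edgeR adjusted p of at most 0.05. Siglech and Siglecf are filled and negative in all 3 fits, while Siglece, Siglec1 and Cd33 are filled and positive only in some.

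Siglec1 (ENSMUSG00000027322), a large adhesion receptor without inhibitory motifs that binds sialylated cells and particles, had 3.98, 11.97 and 7.28 CPM in MOP and 3.37, 7.24 and 3.65 CPM in MODP. The groups overlapped, and MOP replicate 2 was the highest library. Group alone gave a log2 fold change of 0.72 ± 0.47 (SE), which did not pass (edgeR adjusted p = 0.30). Each MOP library exceeded its paired MODP library, by 0.23, 0.71 and 0.97 in log2 CPM, and the block gave 0.68 ± 0.19 (edgeR adjusted p = 0.021). Without replicate 2 of both groups the log2 fold change was 0.68 ± 0.31 and did not pass (edgeR adjusted p = 0.14).

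The resident macrophage list had 11 genes, of which 9 were tested. Adgre1, which encodes F4/80, was called higher in MOP, 0 were called lower and 8 were not called. DESeq2 called 3 of 11 higher, the block 4, and the fit without replicate 2 of both groups 2. Of all tested genes 16.3% were higher with group alone, 21.2% with the block and 18.4% without replicate 2 of both groups. DESeq2, which had no filter on low counts, called 9.25% of its genes higher. Adgre1 had 49.996, 52.0 and 47.4 CPM in MOP and 22.3, 30.4 and 17.8 CPM in MODP (log2 fold change 1.09 ± 0.18, edgeR adjusted p = 0.0047; 1.29 ± 0.12 without replicate 2 of both groups). The summed CPM of the list was 132 to 249.8 in MOP and 105 to 174 in MODP. C1qa, a complement component of resident macrophages, stood at 6.41, 19.5 and 16.4 CPM in MOP and at 6.41, 10.6 and 4.99 CPM in MODP, and was highest in replicate 2 of both groups, as Siglec1 was. The part of the list in the Siglec1 values was not tested.

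Mag (ENSMUSG00000036634), the myelin-associated glycoprotein of oligodendrocytes and Schwann cells, was the lowest of the tested members. It had 22, 18 and 12 counts in MOP and 4, 20 and 8 counts in MODP, or 1.62, 1.15 and 0.910 CPM in MOP and 0.329, 1.88 and 0.562 CPM in MODP. The highest and the lowest library were both MODP libraries. A log2 fold change of 0.46 ± 0.59 (SE) did not pass (edgeR adjusted p = 0.60). It was 1.42 ± 0.47 without MODP replicate 2 (edgeR adjusted p = 0.044), with MODP counts of 4 and 8 left, and the smallest of its 3 MOP counts was 12. Without replicate 2 of both groups it was 1.47 ± 0.51 and did not pass (edgeR adjusted p = 0.06). Among myelin genes, Mbp and Cnp, which blood cells express as well, were at 94.0 to 103 CPM and 72.2 to 77.3 CPM in MOP and at 86.8 to 94.9 CPM and 59.0 to 70.4 CPM in MODP.

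Between members, levels were set side by side as CPM per kilobase of exon. In MOP the order was Siglece (14.6 ± 2.00), Siglecg (8.59 ± 1.38), Siglecf (6.22 ± 0.781), Cd33 (4.72 ± 2.41), Siglech (1.27 ± 0.362), Cd22 (1.25 ± 0.358), Siglec1 (1.084 ± 0.563), Mag (0.302 ± 0.0886) and Siglec15 (0.0609 ± 0.0639), as means ± SD of 3 libraries. Neighbours in this order whose libraries overlapped were Siglecf and Cd33, Siglech and Cd22, and Cd22 and Siglec1. In MODP Siglece (10.4 ± 4.56), Siglecg (9.73 ± 1.22) and Siglecf (9.70 ± 0.486) could not be ordered, since each overlapped the next. They were followed by Cd33 (3.66 ± 2.90), Siglech (3.49 ± 1.21), Cd22 (1.70 ± 1.02) and Siglec1 (0.666 ± 0.302), each again overlapping the next. Mag (0.227 ± 0.206) and Siglec15 (0.173 ± 0.135) came last and overlapped each other. Siglece thus ran from 13.4 to 16.9 CPM per kilobase in MOP, above the 5.67 to 7.12 of Siglecf. In MODP it ran from 6.84 to 15.5, around the 9.25 to 10.2 of Siglecf.

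**Figure D4:**
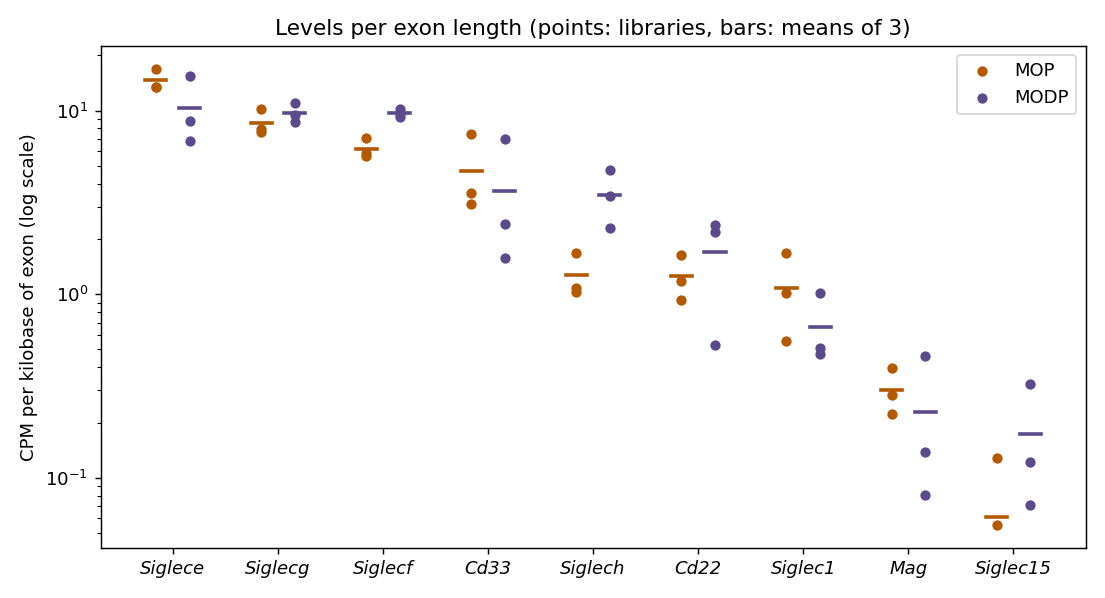
CPM per kilobase of exon (log scale) of the 9 members, ordered by their MOP mean; points are libraries and bars are means of 3. The MOP library without Siglec15 counts cannot be drawn on the log axis; Siglece, Siglecg and Siglecf are the 3 highest members in both populations.

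The genes whose pattern over the 6 libraries was most like that of each tested member were found by the root mean square (RMS) difference of mean-centred log2 CPM, among 9613 genes (9614 for Mag). For Siglecf they were Ralgps2 (RMS 0.03) and Srgn (RMS 0.05); Srgn encodes the granule proteoglycan serglycin. For Siglece they were Stk17b (RMS 0.03) and Arrb2 (RMS 0.05), and for Siglecg Zc3h6 and Ogfod2 (both RMS 0.06). Cd33 was nearest to Map3k9 (RMS 0.07) and Ifnlr1 (RMS 0.11). Siglec1 was nearest to Sdc3 (RMS 0.12) and Cd5l (RMS 0.22), a secreted protein of resident macrophages that was also on that marker list. Siglech was nearest to Pde4b (RMS 0.15) and Gimap6 (RMS 0.24). Cd22 and Mag had no close match: Ppp1r16b (RMS 0.34) was among the nearest genes of Cd22, and Mag was nearest to Zfp831 (RMS 0.26) and Col11a2 (RMS 0.30).

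Counted in either direction, Siglec signalling partners were called about as often as genes at large in the fit with group alone. All 15 genes on this list were tested: edgeR called 4 higher and 1 lower and left 10 uncalled. That is 33.3% called against 31.2% of all tested genes, with a median log2 fold change of 0.17. By direction, 26.7% were higher against 16.3% of all tested genes, and 6.67% were lower against 14.9%. Tyrobp, which encodes DAP12, had 432, 384 and 409.6 CPM in MOP and 217, 239 and 170.4 CPM in MODP. It rose by 0.97 ± 0.12 (SE) on the log2 scale (edgeR adjusted p = 0.0017), the opposite direction to Siglech, whose product pairs with it. Ptpn6, which encodes SHP-1, rose by 0.46 ± 0.06 and Lyn, the kinase that phosphorylates Siglec tails, by 0.73 ± 0.10 on the log2 scale (edgeR adjusted p = 0.0016 and 0.0013). The phosphatase genes Ptpn11 and Inpp5d did not pass (edgeR adjusted p = 0.25 and 0.46). The adaptor gene Grb2, the other higher member (log2 fold change 0.16), lost its call in 8 of 13 alternatives. In the other direction went Src, a kinase gene (log2 fold change -1.25, at 0.455 to 0.640 CPM in MOP and 0.904 to 1.69 CPM in MODP), which lost its call in 8 of 12. Without replicate 2 of both groups, or without MODP replicate 2 alone, 9 members were higher and 0 were lower, and with the replicate number as a block 7 were higher and 2 were lower.

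Of 7 genes of sialic acid metabolism, which make, activate, transport or modify the sugar or, for the lyase gene Npl, break it down, edgeR called 1 lower and left 6 uncalled. This is 14.3% called against 31.2% of all tested genes; the median log2 fold change of -0.22 is that of Npl. The block and the fit without replicate 2 of both groups each called 2 lower, Gne and Cmah. Of all tested genes, 19.8% and 15.6% were lower in these fits. The lower one was Gne, the rate-limiting enzyme of the pathway, with 39.4, 41.5 and 39.8 CPM in MOP and 61.7, 54.3 and 60.4 CPM in MODP. Its groups did not overlap, and it fell by 0.55 ± 0.07 (SE) on the log2 scale in MOP (edgeR adjusted p = 0.0012). Of 20 sialyltransferase genes 15 were tested, with 6 called higher, 1 called lower and 8 uncalled (median log2 fold change 0.38), or 40.0% higher and 6.67% lower against 16.3% and 14.9% of all tested genes. The higher ones were 7 with the block and 8 without replicate 2 of both groups, against 21.2% and 18.4% of all tested genes. St3gal1 and St3gal2, which add sialic acid in alpha2,3 linkage, rose by 0.67 ± 0.10 and 0.61 ± 0.13 on the log2 scale (edgeR adjusted p = 0.0027 and 0.011). St8sia6, an alpha2,8-sialyltransferase, had 12.002, 8.07 and 12.1 CPM in MOP and 5.02, 4.99 and 5.34 CPM in MODP (log2 fold change 1.06 ± 0.19, edgeR adjusted p = 0.0043). St8sia4, St3gal4 and St6galnac5 were the other higher members, and lost their calls in 5 of 13, 6 of 13 and 5 of 12 alternatives, fits without a library for the most part. St6galnac4 was the lower member, at -0.65 ± 0.12 (edgeR adjusted p = 0.0051). The higher sialyltransferases were 3 without MOP replicate 1, without MODP replicate 1 or without MODP replicate 3.

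On the other side of the pathway, the sialidase genes Neu1 and Neu3 did not pass (edgeR adjusted p = 0.69 and 0.26). The list of sialidases and sialate esterases also holds Casd1, a sialate O-acetyltransferase, and 5 of its genes were tested. Ctsa, the cathepsin that protects the lysosomal sialidase, was its 1 called gene (20.0% of those tested) and was higher in MOP, with 286.5, 251 and 261 CPM against 196, 199 and 181 CPM in MODP (log2 fold change 0.47 ± 0.07, edgeR adjusted p = 0.0017). Among 6 tested glycoprotein genes that carry sialylated glycans or act beside Siglecs, edgeR called 3 higher in MOP and 0 lower. The other 3 were uncalled, and 16.3% of all tested genes were higher. With the block 4 of the 6 were higher, against 21.2% of all tested genes. Without replicate 2 of both groups 4 were higher, against 18.4% of all tested genes. Spn, which encodes CD43, a ligand of Siglec-1, rose by 0.26 ± 0.07 and Cd44 by 0.26 ± 0.07 on the log2 scale (edgeR adjusted p = 0.020 and 0.018), and Selplg by 0.92 ± 0.10 (edgeR adjusted p = 0.00080). Only Selplg was still called without MOP replicate 1, without MODP replicate 1 or without MODP replicate 3. Markers of basophils and mast cells were higher in MOP beside these groups: 8 of 9 were called, against 16.3% of all tested genes higher. With the block 3 were called (Cpa3, Cyp11a1 and Il4), against 21.2% of all tested genes higher in that fit. Without replicate 2 of both groups 8 were called, and 5 without MOP replicate 1 or 3 or without MODP replicate 1 or 3. None of these markers was at 0 in all libraries, and their summed CPM was 3421 to 5372 in MOP and 568 to 1175 in MODP. Their part in the pathway differences was not tested.

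**Figure D5:**
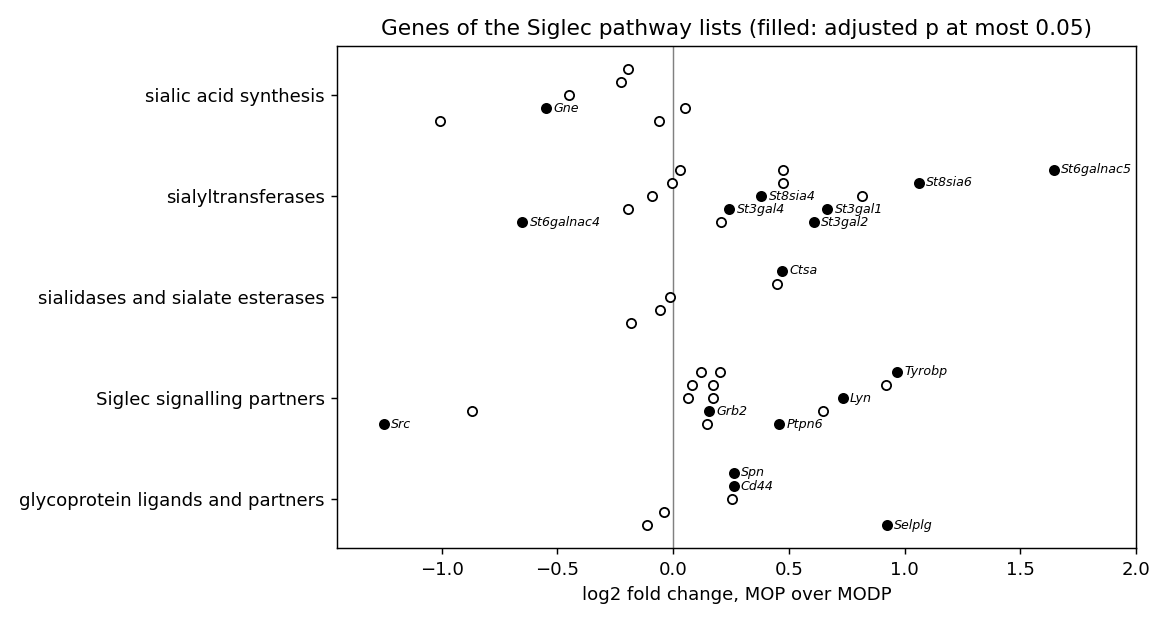
Log2 fold change of MOP over MODP (horizontal axis) of the tested genes on 5 lists of the Siglec pathway, 1 row per list; filled and named points have an edgeR adjusted p of at most 0.05, and the vertical spread within a row carries no value. The row named for sialic acid synthesis also holds the lyase gene Npl, and that of sialidases and sialate esterases the acetyltransferase gene Casd1. Tyrobp, Lyn and Ptpn6 lie to the right of 0 and Gne to the left.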

How the data were processed

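The deposited values are unnormalized read counts, whole numbers for each Ensembl gene and library. Per the submitters' processing notes, TopHat 1.4 and HTSeq were used; genome build, annotation and strand setting are not stated. The cell type label gave the groups. The replicate numbers are those of the column names, 1 to 3 in each group; the titles of replicate 3 of both groups carry number 1 instead. Symbols and exon lengths came from GENCODE M21 by gene identifier, and 1431 of 22271 identifiers had no symbol. Every row named a gene.

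CPM values were computed with TMM-scaled library sizes. Genes kept by filterByExpr were tested with edgeR 4.0.16 (robust quasi-likelihood test, group as the sole factor), and SE follow from its F statistic. Alternatives were DESeq2 1.42.0, upper-quartile scaling, other count filters, a block and left-out libraries. Over 9351 genes, deviations from the group means correlated at 0.59, 0.61 and 0.51 for the same column number and at -0.45 to 0.05 otherwise, so the column numbers were taken as pairs. Counts of 2 libraries of 1 group differed by a chi-square of 7.35 to 34.7 per degree of freedom, far above sampling noise, so all were kept as replicates. The test was checked on simulated counts. Patterns were compared among genes with a mean of at least 5 CPM (prior count 2).

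The members, the lists and the rule for named genes were chosen with earlier results of these data known. All members, the called genes of the pathway lists and the 2 nearest patterns per member are named, except for some items that are not reported here; other genes of the marker lists were chosen after their values were seen.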

Additional observations from a re-analysis of the deposited data

How the results depend on the processing

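Each of the 8 tested members was refitted under 13 alternatives. Siglech (log2 fold change -1.71 to -1.16) and Siglecf (-0.75 to -0.58) were lower and called in all 13, and Siglecg was called in none. Lower members numbered 2 under 12 alternatives and 3 without MODP replicate 3, where Cd22 was called too and 9.92% of all tested genes were lower. The count of higher members was 2 with the replicate number as a block, with the title number as a block, without replicate 2 of both groups and without MODP replicate 2, and 0 otherwise, so the range without 1 library was 0 to 2. In these fits, in the same order, 21.2%, 19.6%, 18.4% and 19.3% of all tested genes were higher. Siglece was called at 0.55 with the replicate block and with the title number block, at 0.79 without replicate 2 of both groups, and ran from 0.27 to 0.91 without 1 library. Siglec1 was called at 0.68 with the replicate block and at 0.69 with the title number block. Cd33 was called at 0.74 without replicate 2 of both groups, and ran from -0.12 (the 1 change of sign, without MOP replicate 2) to 1.25 without 1 library. Cd22 ran from -0.87 to -0.094 and Mag from 0.053 to 1.42 without 1 library; the cause of these shifts was not tested. Over all genes the higher calls numbered 1281 to 2524 (2095 with all libraries) and the lower calls 1036 to 2275 (1913 with all) without 1 library. Both lowest counts were without MOP replicate 1, and without MODP replicate 1 the lower calls numbered 1264. Under upper-quartile scaling they were 1692 higher and 2452 lower. Under that scaling Cd47 on the glycoprotein list was lower and Casd1, the acetyltransferase on the sialidase list, was lower, the second also without MODP replicate 2. For the lists, sialic acid metabolism had 2 lower genes with DESeq2, with either block and without replicate 2 of both groups, and the glycoprotein list had 1 higher gene without MOP replicate 1, MODP replicate 1 or MODP replicate 3. With 3 libraries a group and 4 to 22 counts of Mag in a library, depth limits what can be said of Mag and Siglec15.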
